A study of Drosophila melanogaster with 2 samples.

Results

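E(var)3-9 was located by chromatin immunoprecipitation followed by sequencing (ChIP-seq), and the regions described here are its promoter peaks whose summit lay inside the transcribed side of the promoter, downstream of the transcription start site (TSS). A summit is the single base that the peak caller marks as the strongest point of a region. IDR, the irreproducible discovery rate, is a method that sets a threshold by how alike regions rank in replicates, and peaks that passed it are called IDR peaks. Members were the peaks of the joint dm6 list that passed the IDR threshold and whose summit lay 1 to 500 bp downstream, along the gene's strand, of the nearest annotated TSS. Summits lying upstream of both TSSs of a divergent pair of protein-coding genes were dropped. This left 182 regions, which are 5.29% of the IDR peaks. The other IDR peaks were 999 upstream of the nearest TSS at single-gene promoters, 669 between divergent protein-coding TSSs, 2 with the summit on the TSS, and 1586 farther than 500 bp from every TSS. The members made up 9.83% of the 1852 peaks with a summit within 500 bp of a TSS. Among the 669 peaks between divergent protein-coding TSSs, 74 were downstream of their nearest TSS and were dropped from the members for that reason. The position of the summit chose the members among regions whose joint signal was high enough to pass. Sequence played no part, and 5'UTR, intron or coding exon was not used, though distance from the TSS limits which of these a summit can reach.

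The single group consisted of whole embryos of a transgenic line of Drosophila melanogaster that stably carries E(var)3-9 fused at its C-terminus to green fluorescent protein (GFP). The embryos were 0 to 24 h old, with males and females pooled, and the fusion was precipitated with an antibody against GFP. There were 2 biological replicates, numbered 2 and 3 in the labels, each from its own biosample of the same line. No other genotype, treatment or stage was used, so conditions could not be compared, and no p-value is given. The line reports a tagged copy of the protein, the chromatin of all embryonic tissues and stages is mixed, and sonicated fragments of 200 to 800 bp limit how finely a summit can be placed. Read depth is unknown, and the control library was not analysed here.

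E(var)3-9 encodes a zinc finger protein and is named for a mutation that enhances position-effect variegation, the patchy silencing of a gene placed beside heterochromatin. At fly promoters, sequence-specific factors commonly bind upstream of the TSS, in chromatin kept free of nucleosomes, while the first positioned nucleosome and the paused polymerase lie downstream of it. The transcribed side begins with the 5' untranslated region (5'UTR), which is followed by coding sequence or, in many fly genes, by a first intron. The DNA replication-related element (DRE) is a core promoter sequence of housekeeping genes bound by the factor Dref, and its inner letters are also recognised by the boundary protein BEAF-32.

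DRE letters lay close to 9 of the 182 summits, and 7 of these sites are shown as the promoter letters that members carry. Those of asRNA:CR45928 and CG3760 are named only. The sequences come from the RefSeq genome of assembly Release 6, the same assembly as dm6, in 30 bases along the gene's strand, with TATCGATA in capitals. The site of mTerf5, of the mitochondrial transcription termination factor family, lies at chr3R:18223674-18223703 on the minus strand, and that of cnc, the fly relative of the stress-response factor Nrf2, at chr3R:23190146-23190175 on the minus strand. The site of RpL26, a protein of the large ribosomal subunit, lies at chr3L:18898850-18898879 on the plus strand, and that of Deaf1, a transcription factor, at chr3L:19818125-19818154 on the plus strand. The sites of P5CDh1, an enzyme of proline breakdown, and CG31957 lie at chr3L:21841411-21841440 and chr2L:3872449-3872478, both on the minus strand. The site of RanBP3, a cofactor of nuclear export, lies at chr3R:23752819-23752848 on the minus strand.
mTerf5: tttgccggccgTATCGATAgttgattacct
cnc: ttacagtgcacTATCGATAtggaggaccca
RpL26: gatgacagtgtTATCGATActagctgaatt
Deaf1: cgaatcacgacTATCGATAgtgccgatagc
P5CDh1: tcttggcgcctTATCGATAgctatggacag
CG31957: ttatagagtgcTATCGATAgtgacacgact
RanBP3: tcgccggcgctTATCGATAgtgacagcgat

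Another kind of member had its summit in an intron. Of the intronic members, 4 strong ones are shown for their base composition, as the 101 bases centred on the summit along the gene's strand, with runs of at least 8 letters of A or T in capitals. They are CG31612 (chr2L:21794923-21795023, minus strand), Cftr, the fly relative of the CFTR chloride channel (chr3R:24543173-24543273, minus strand), Eip63F-1, an ecdysone-induced calcium-binding protein (chr3L:3928619-3928719, minus strand), and rudhira (chrX:11818523-11818623, plus strand).
CG31612: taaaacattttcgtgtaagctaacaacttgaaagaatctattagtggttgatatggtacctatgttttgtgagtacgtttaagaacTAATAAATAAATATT
Cftr: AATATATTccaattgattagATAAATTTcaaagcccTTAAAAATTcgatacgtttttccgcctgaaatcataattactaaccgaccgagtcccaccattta
Eip63F-1: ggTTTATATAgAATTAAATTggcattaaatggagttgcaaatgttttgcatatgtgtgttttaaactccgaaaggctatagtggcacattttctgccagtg
rudhira: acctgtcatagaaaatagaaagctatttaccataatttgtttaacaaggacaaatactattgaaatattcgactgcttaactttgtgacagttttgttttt
A and T made up 73.3% of the window of CG31612, 67.3% of that of Cftr, 65.3% of that of Eip63F-1 and 72.3% of that of rudhira. The rudhira window held no run of 8, so its A and T letters are spread in short stretches. The intronic members CG8320, Trmt6 and lncRNA:CR45325 had higher joint signals than Eip63F-1 and rudhira but are not shown. Over the 201 bases centred on their summits A and T made up 65.2%, 55.7% and 53.7%. Over the same length they made up 66.7% at CG31612, 69.2% at Cftr, 65.2% at Eip63F-1 and 67.2% at rudhira. The printed windows thus do not stand for all strong intronic members.

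Downstream summits were sparse for the sequence open to them. The bases where a summit would count as downstream by the same rule came to 9825973, and the members' density on them was 18.5 summits per Mb. The bases of upstream single-gene positions came to 7529287, with 999 peaks and 133 summits per Mb. Downstream density was thus 0.140 of upstream density. When each replicate's strongest regions were used instead, cut to the number of IDR peaks, the downstream density was 18.5 per Mb for replicate 2 and 19.0 for replicate 3, with a mean of 18.8 ± 0.360 (SD, n = 2). The ratio to upstream density was 0.138 in replicate 2 and 0.156 in replicate 3. Sequence farther than 500 bp from every TSS held 13.7 summits per Mb, so the downstream side stood 1.35 times above it in the joint list, 1.35 times in replicate 2 and 1.29 times in replicate 3.

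Members were densest beside the TSS, thinned out towards 300 bp and were denser again beyond it. Within 100 bp of the TSS lay 70 members, at 32.3 per Mb. From 101 to 300 bp there were 43, at 10.8 per Mb, and from 301 to 500 bp there were 69, at 18.8 per Mb. The replicates showed the same order, with 36.4, 12.1 and 14.9 summits per Mb over these bands in replicate 2 and 32.3, 12.8 and 17.9 in replicate 3. In steps of 50 bp the members' density was highest in the first, with 46 members at 41.6 per Mb, and lowest from 251 to 300 bp, with 3 members at 3.12 per Mb. The position of the lowest point was less stable: it held 10 regions in replicate 2, whose own lowest step was 301 to 350 bp with 5 regions, and 5 regions in replicate 3. From 451 to 500 bp there were 24 members at 26.8 per Mb. The median distance over all members was 161 bp (order-statistic interval 123 to 210), and since few summits lie there it describes no typical member.

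**Figure D1:**
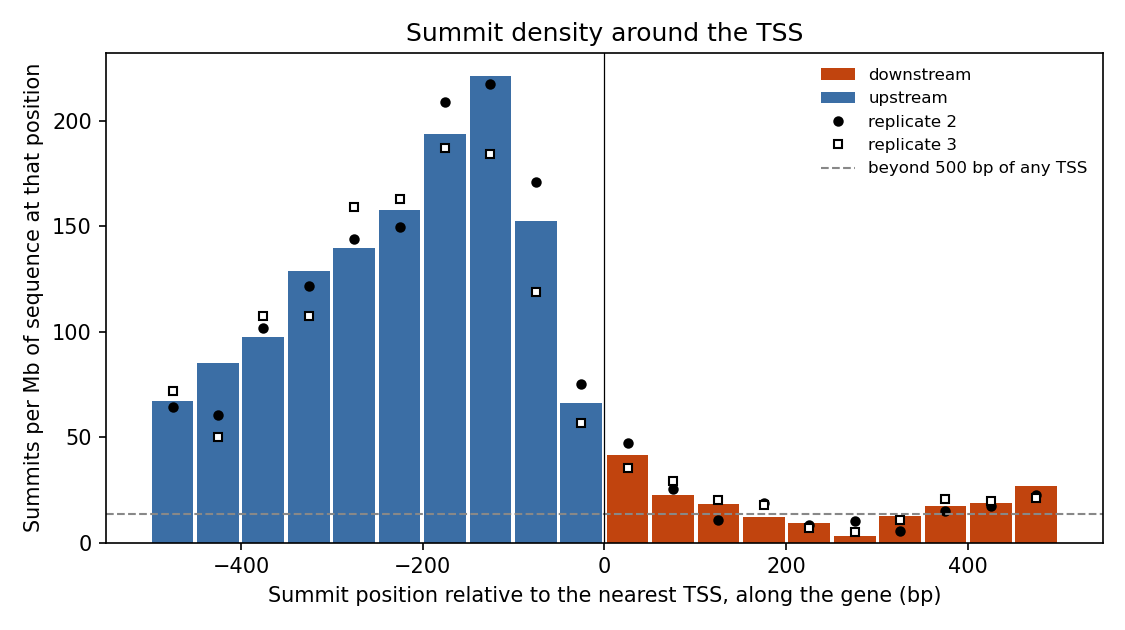
Summits per Mb of sequence at each position (vertical axis) against position relative to the nearest TSS along the gene in bp (horizontal axis, 50-bp bars, joint IDR peaks), with downstream bars to the right and upstream single-gene bars to the left of the line at the TSS. Points are the strongest regions of each replicate, cut to the number of IDR peaks, and the dashed line is the 13.7 per Mb found beyond 500 bp of any TSS: downstream bars start at 41.6, pass below the dashed line at 3.12, and end at 26.8, while upstream bars reach 221.

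The plot of summit density shows that the first bars downstream continue the falling edge of the upstream hill, and that the bars dip below the level of distal sequence before they return above it. To see whether the return belongs to the 500-bp edge, the window was widened to 1000 bp, which also widens the exclusion of divergent pairs. Density was then 6.31 per Mb from 201 to 300 bp, 23.1 from 401 to 500 bp, and between 18.1 and 25.1 per Mb in each step of 100 bp from 501 to 1000 bp. Replicate 2 ranged from 16.9 to 29.5 per Mb over those last steps, and replicate 3 from 17.5 to 23.8. Density beyond 500 bp thus stayed near the level of the last step inside the window, with no separate maximum at its edge.

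Downstream regions also passed the IDR threshold less often than upstream ones. The joint list before thresholding held 24963 regions, of which 13.8% passed. Passing was a cut on joint signal, since the IDR peaks are the strongest regions of that list. Of 1762 downstream regions 182 passed, or 10.3% (95% Wilson interval 8.99 to 11.8), against 999 of 3550 upstream ones, or 28.1% (26.7 to 29.6). The difference was -17.8 percentage points (95% Newcombe interval -19.8 to -15.7). These intervals cover counting of regions only, and regions of a library are not replicates of a condition. The pass share was 12.05% within 100 bp, 6.72% from 101 to 300 bp and 12.8% from 301 to 500 bp. It was lowest at 2.31% from 251 to 300 bp and highest at 18.3% from 451 to 500 bp.

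**Figure D2:**
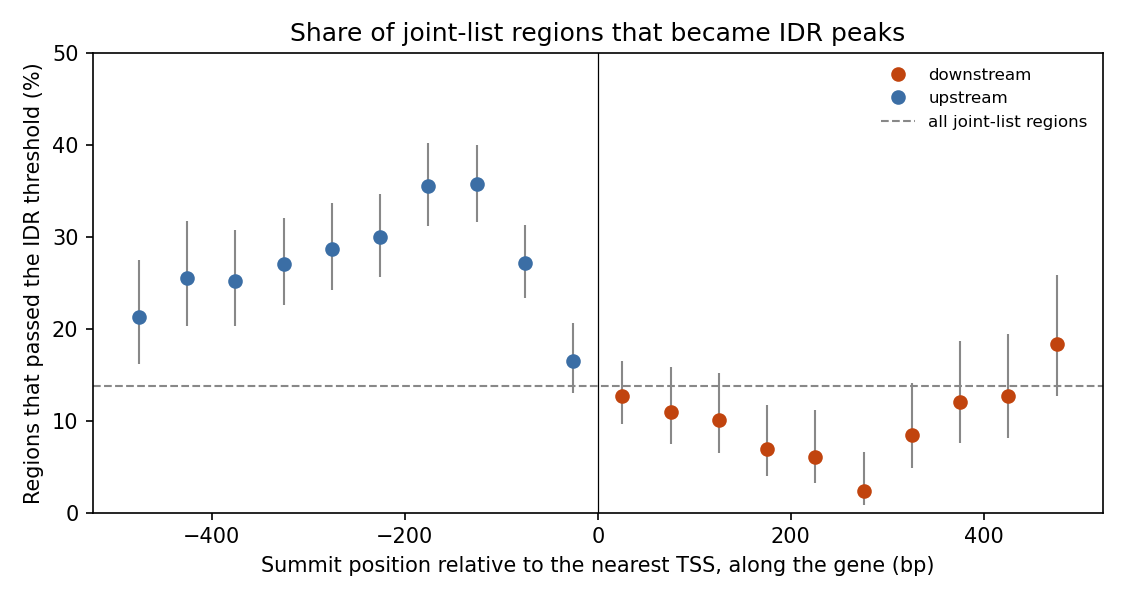
Share of joint-list regions that passed the IDR threshold (%, vertical axis) by position of the summit relative to the nearest TSS in bp (horizontal axis, 50-bp steps), for downstream (right) and upstream single-gene regions (left), with 95% Wilson intervals as vertical lines. The dashed line is the 13.8% of all joint-list regions: the downstream points fall to 2.31% at 251 to 300 bp and return to 18.3% at 451 to 500 bp.

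The plot of pass shares counts the same members as the density plot, over the regions listed before thresholding. Those regions were densest beside the TSS, at 328 per Mb from 1 to 50 bp. Their density was also lowest from 251 to 300 bp, at 135 per Mb, against 151.1 per Mb from 201 to 250 bp, 151.3 per Mb from 301 to 350 bp and 147 per Mb from 451 to 500 bp. Between 251 to 300 bp and 451 to 500 bp the number of listed regions was nearly equal, at 130 and 131, so the pass shares there follow the counts of 3 and 24 members.

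Members lay in untranslated and intronic sequence and hardly ever in coding sequence. In the gene of the nearest TSS, 85 summits lay in a 5'UTR, which is 46.7% of members (39.6 to 53.9) against 29.8% of the bases where a downstream summit could lie. Introns held 59 summits, or 32.4% (26.04 to 39.5) against 18.8% of the bases. Exons of noncoding RNA genes and a pseudogene held 30, or 16.5% against 11.8% of the bases. Coding exons held 2 summits, or 1.10% (0.302 to 3.92), against 35.1% of the bases. In the replicates' own lists coding exons held 3 of 182 downstream summits in replicate 2 and 3 of 187 in replicate 3. The remaining 6 summits lay past the end of a short gene, and none lay in a 3'UTR.

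**Figure D3:**
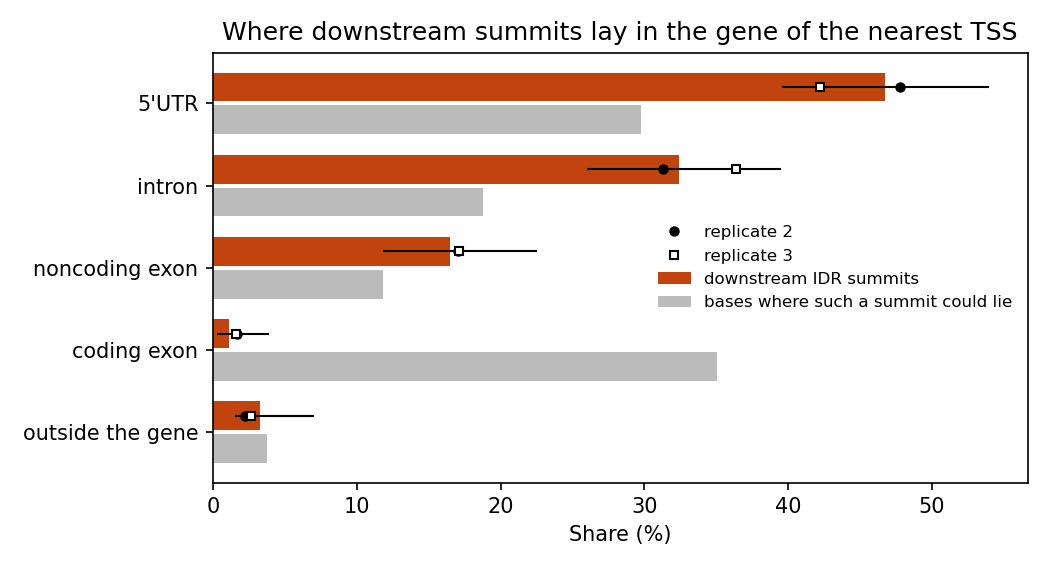
Share (%, horizontal axis) of downstream summits in each part of the gene of the nearest TSS (upper bar of each pair, with its 95% Wilson interval) and of the bases where such a summit could lie (lower bar); points are the shares in each replicate's strongest regions. The 5'UTR holds 46.7% of summits on 29.8% of bases, while coding exons hold 1.10% on 35.1%.

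The plot of gene parts shows coding exons as the class in which summits and available bases differ most. The members in coding exons are CG12567 at 23 bp and CG44812 at 412 bp, named after their values were seen. CG12567 had a joint signal of 59.6, with 20.3 in replicate 2 and 37.0 in replicate 3. Its matched summit lay 21 bp upstream of this TSS in replicate 2 and 54 bp downstream of it in replicate 3, where another start of the gene was nearer, so its place in coding sequence rests on the joint list. CG44812 had a joint signal of 113. Downstream regions of the joint list were also few in coding exons for the bases there, with 276 on 35.1% of the bases. Introns held 441 on 18.8% and 5'UTRs 730 on 29.8%. Of the 276 in coding exons 2 passed (0.725%, 0.199 to 2.60), against 59 of 441 in introns (13.4%) and 85 of 730 in 5'UTRs (11.6%).

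Members near the TSS and members farther in sat in different parts of genes. By steps of 100 bp from the TSS, the 5'UTR held 57, 16, 2, 4 and 6 members, and introns held 2, 12, 8, 13 and 24. The available bases changed in the same sense: 5'UTR made up 65.2% of them in the first step and 9.40% in the last, and introns 3.83% in the first and 28.3% in the last. Coding exons made up 44.7% of the bases from 301 to 400 bp, where they held 0 of 28 members, and 44.6% from 401 to 500 bp, where they held 1 of 41. An intron held 37 of the 69 members at 301 to 500 bp, or 53.6%, against 2 of the 70 within 100 bp, or 2.86% (difference 50.8 points, 37.2 to 62.2).

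Many of the members nearest the TSS were also upstream of another TSS. Among all members, 81 lay upstream of at least 1 further TSS within 500 bp, while 101 were downstream of every TSS in the window. Of the 81, the nearest such TSS belonged to another gene on the opposite strand in 42, to the same gene in 36 and to another gene on the same strand in 3. Of the 42 opposite-strand partners, 39 were protein-coding. Within 100 bp of the TSS, 55 of 70 members (78.6%) had such a TSS, against 3 of 69 (4.35%) at 301 to 500 bp. A summit that far from its nearest TSS can have no other TSS closer, so the rule itself leaves less room for one. GstE13, a glutathione S-transferase and the strongest member, is of this kind: its summit 53 bp downstream of 1 start of GstE13 was 146 bp upstream of a later start of the same gene. The 101 members downstream of every TSS had a median distance of 373 bp and a median signal of 87.8, and the 81 others had a median distance of 54 bp and a median signal of 84.8.

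Members with a single TSS in the window were not concentrated beside it. There were 91 of them, with 10 in the first step of 100 bp, 13 in the second, 7 in the third, 23 in the fourth and 38 in the fifth. On the bases where exactly 1 TSS lies in the window, density was 7.35, 9.13, 4.59, 14.2 and 22.1 per Mb over those steps. In replicate 2 it was 11.8, 10.5, 7.21, 10.5 and 18.6 per Mb, and in replicate 3 it was 10.3, 14.0, 4.59, 16.0 and 19.8. This breakdown was chosen after the other values were seen. The fifth step had the highest density in the joint list and in both replicates. The order of the other steps differed between replicates, and in replicate 2 the first step was the next highest.

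Noncoding RNA genes took a larger share of downstream than of upstream peaks. The nearest TSS belonged to a noncoding RNA gene in 37 members (20.3%, 15.1 to 26.8), against 65 of 999 upstream peaks (6.51%), a difference of 13.8 points (8.35 to 20.4). By their names 29 of the 37 are long noncoding RNA genes, 6 antisense RNA genes and 2 other noncoding transcripts. These genes held 12.9% of the available bases, and members lay on them at 29.3 per Mb, against 17.4 per Mb for the 143 members at protein-coding genes. Their share of the upstream bases was not computed, so the 6.51% of upstream peaks has no such value beside it. The rule for divergent pairs dropped peaks at protein-coding pairs only. The remaining members belonged to 1 snoRNA gene and 1 pseudogene. Noncoding members had a median distance of 335 bp and a median joint signal of 98.3 (81.9 to 136), against 139 bp and 84.8 (79.0 to 95.3) for protein-coding members. A later start of the gene, not its first, was the nearest TSS of 60 members (33.0%), against 302 upstream peaks (30.2%), a difference of 2.74 points with an interval from -4.31 to 10.4. Over the chromosome arms, density ran from 14.7 per Mb on 3R to 21.9 on X, and the fourth chromosome had 3 members at 39.4 per Mb. Those 3 lie on only 76213 available bases, and 2 of them belong to a single gene, apolpp.

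The signal of a region is the caller's own value, on a scale that the sources used here do not give, and larger for stronger regions. Members had a median joint signal of 85.5 (80.2 to 95.5, range 58.4 to 499), against 92.5 (89.3 to 95.7) for upstream peaks and 101 (94.0 to 106) for divergent ones. Median signals in the replicate lists were 50.7 in replicate 2 and 37.6 in replicate 3 for members, and 55.8 in replicate 2 and 39.1 in replicate 3 for upstream peaks. Both sets were cut at the same joint signal of 58.2, so these medians describe what is left above the cut. Before the cut, the median signal was 24.1 over the 1762 downstream regions and 34.1 over the 3550 upstream ones. Medians were 85.1 within 100 bp, 94.5 from 101 to 300 bp and 84.9 from 301 to 500 bp. Of the 860 strongest IDR peaks 47 were members, which is 25.8% of members, against 28.0% of upstream peaks (difference -2.20 points, -8.68 to 5.12).

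The strongest members lay both near the TSS and far from it. GstE13 reached 292 in replicate 2 and 209 in replicate 3, and a joint signal of 499. The long noncoding RNA gene lncRNA:CR44619 had 262 and 216, with a joint 479, at 484 bp. In replicate 3 the summit of lncRNA:CR44619 lay at 512 bp, past the end of the window. At ph-p, which encodes a Polyhomeotic subunit of the Polycomb complex PRC1, the summit lay in the 5'UTR at 429 bp, with 206 and 196 and a joint 392. These 3 members are high in both replicates, and only GstE13 lies beside its TSS.

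The next strongest were closer to the TSS. The antisense gene asRNA:CR45928 had 193 in replicate 2 and 190 in replicate 3 (joint 382) at 54 bp, and its summit was also 83 bp upstream of eIF6, a factor of ribosome assembly and translation initiation on the opposite strand. CG8320 had 201 and 178 (joint 380) in an intron at 109 bp, and tank had 189 and 169 (joint 356) in the 5'UTR at 137 bp. PNPase, the mitochondrial polynucleotide phosphorylase, had 185 and 166 (joint 344) at 76 bp, but its summit in replicate 3, at 92 bp, was nearer to another start of the gene and upstream of that one. Replicate 2 was the higher one at each of these members, as it was over all IDR peaks, whose median log2 ratio of replicate 2 to replicate 3 was 0.45.

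Of the others among the 15 strongest, 5 lay within 102 bp of the TSS and 3 deeper. CG9147 lay 6 bp inside, with 179 in replicate 2 and 130.0 in replicate 3. Trmt6, a subunit of a tRNA methyltransferase, lay in an intron at 102 bp, with 139 and 135. Ufsp1, a protease that processes the ubiquitin-like protein UFM1, lay at 18 bp with 154 and 105, and TRAM, a protein of the endoplasmic reticulum translocation channel, at 78 bp with 127 and 79.5, though its summit in replicate 3, at 101 bp, was nearer to another start and upstream of that one. The gene lncRNA:CR44149 at 76 bp had 207 and 132.

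Among the deeper ones, CG31612 had 134 in replicate 2 and 120.0 in replicate 3 at 474 bp, though its summit in replicate 2, at 518 bp, lay past the window. Cftr had 140 and 85.8 at 202 bp, and egh, a glycolipid-synthesis enzyme, had 117 and 89.4 in its 5'UTR at 349 bp. At the weak end, CG12877 (joint 58.4) had no summit within 150 bp in replicate 2 and pck, a claudin of septate junctions (joint 58.7), had none in replicate 3. RanBP3, the pseudogene CR42875 and CG31957 had joint signals of 58.8, 58.8 and 58.9, each with replicate 2 above replicate 3.

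The replicates recovered members about as often as other peaks. Of the members, 130 (71.4%, 64.5 to 77.5) had a summit within 150 bp among the strongest regions of both replicates, cut to the number of IDR peaks, against 69.5% of all IDR peaks and 70.6% of upstream peaks (difference from upstream 0.858 points, -6.62 to 7.58). Only 5 members were matched in neither. In the complete lists 181 members were matched in replicate 2 and 175 in replicate 3. Summit positions in the replicates differed by a median of 31.5 bp in size, and by at most 50 bp for 123 of the 174 members matched in both (70.7%).

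The matched summits were also placed relative to the member's own TSS in each replicate. They lay 1 to 500 bp downstream of it for 163 members in replicate 2, for 157 in replicate 3 and for 143 in both. Within 100 bp of the TSS, 22 of 70 members had a summit on or upstream of that TSS in at least 1 replicate, and 2 had one in both. At 101 to 300 bp 0 of 43 did, and at 301 to 500 bp 0 of 69, where 11 members had a summit past 500 bp in at least 1 replicate. Since matched summits could differ by up to 150 bp, members far from an edge had less room to cross it. By the full rule, under which the nearest TSS may be another one, 135 members (74.2%) were downstream in both replicates, 24 in replicate 2 only, 18 in replicate 3 only and 5 in neither.

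**Figure D4:**
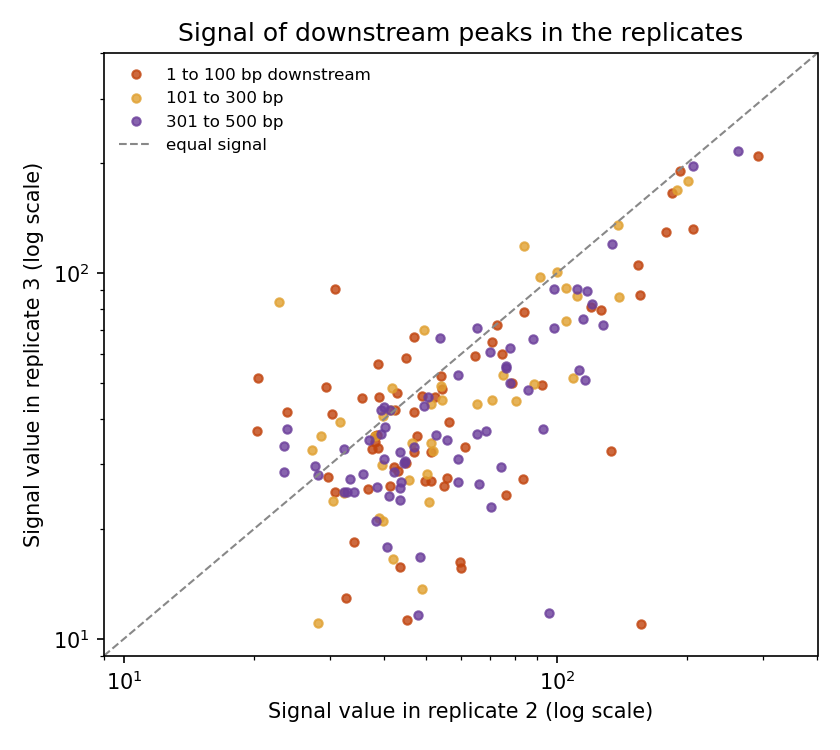
Signal value of each downstream peak in replicate 2 (horizontal axis, log scale, no stated unit) against replicate 3 (vertical axis, log scale) for the 174 members matched in both complete lists, coloured by distance from the TSS, with the dashed line at equal signal. Most points lie below the line, and a few with replicate 3 near 11 stand far from it.

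The plot of replicate signals shows a looser relation near the TSS. Spearman's rho between replicates was 0.375 over 65 members within 100 bp, 0.731 over 42 at 101 to 300 bp, 0.641 over 67 at 301 to 500 bp and 0.558 over all 174, as descriptions over regions that share both libraries. The median log2 ratio of replicate 2 to replicate 3 was 0.42. Some matches differed widely in signal, and some of those lay at different places. The largest ratio was at lncRNA:CR31840, with 156 in replicate 2 and 10.99 in replicate 3. Its summits were 12 and 8 bp downstream of the TSS. At lncRNA:CR45618 the values were 96.1 in replicate 2, at 442 bp, and 11.8 in replicate 3, at 307 bp. At Dp, the partner of the cell cycle factor E2F, they were 47.7 at 387 bp and 11.6 at 385 bp. Eip75B, an ecdysone-induced nuclear receptor, had 134 at 25 bp in replicate 2 and 32.6 at 137 bp in replicate 3. The replicate 2 summit of RanBP3, with 45.0, lay 23 bp upstream of the TSS between divergent genes, and its replicate 3 summit, with 11.3, 23 bp downstream. In the other direction CHES-1-like, a forkhead transcription factor, had 22.8 at 68 bp in replicate 2 and 83.6 at 142 bp in replicate 3. Pex6, of peroxisome assembly, had 30.7 at 5 bp in replicate 2. Its match in replicate 3, with 90.4, lay 145 bp upstream of the TSS between divergent genes, and another IDR summit lies 200 bp from the member, so the ratio compares different places. At nbs, of DNA double-strand break repair, the values were 20.4 at 20 bp in replicate 2 and 51.6 on the TSS itself in replicate 3. Zif, a zinc finger protein, had 23.9 at 34 bp upstream in replicate 2 and 41.6 at 69 bp downstream in replicate 3, and CG12567 is given above.

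Most members had no other IDR summit within 1000 bp. The nearest other IDR summit lay a median of 5985.5 bp away, and 38 members (20.9%) had another within 1000 bp. An IDR summit also lay within 500 bp upstream of the same TSS for 19 members. The gene, with 500 bp to either side, held another IDR summit for 55 members and 3 or more in all for 20. These values are not set beside those of all IDR peaks, so members are not called more or less isolated than others. The members belonged to 178 genes, of which 139 are protein-coding, so that 0.997% of the 13945 protein-coding genes were nearest to a downstream summit. BEAF-32, Sps1, apolpp and ph-p each held 2 members. Of the members, 81.3% are regions of exactly 420 bp, and regions that overlap were counted separately, as at BEAF-32.

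Summits were rich in A and T, though less so than upstream ones. Within 100 bp of the summit A and T made up 63.6% ± 6.77 (SD over 182 regions) at members, against 66.1% ± 6.61 at 999 upstream peaks and 67.8% ± 5.54 at 669 divergent ones. Windows centred 1000 bp to either side of members with no IDR peak had 56.7% ± 9.59 (345 windows). Windows on all protein-coding TSSs had 57.7%, and those 161 bp downstream of these TSSs, the members' median distance, had 54.9%. Members were thus richer in A and T than their flanks. They were also richer than the windows at 161 bp, but few members lie at that distance from their TSS. Parts of the gene were matched in neither comparison. The share was 62.6% within 100 bp, 63.8% from 101 to 300 bp and 64.4% from 301 to 500 bp.

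**Figure D5:**
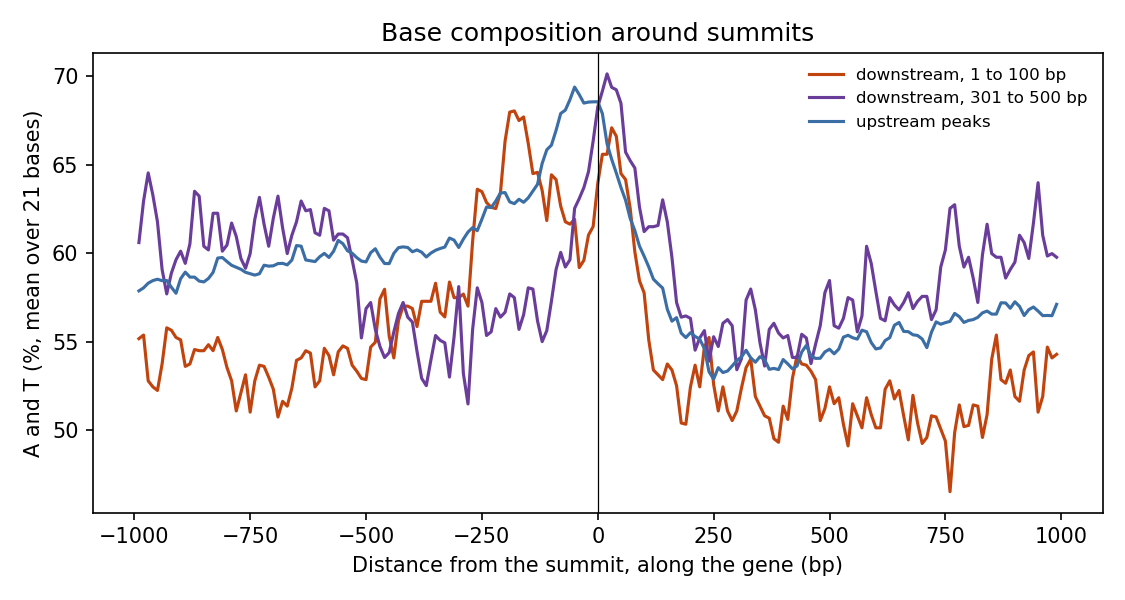
A and T content (%, vertical axis, mean over 21 bases) against distance from the summit along the gene in bp (horizontal axis) for downstream peaks 1 to 100 bp from the TSS, downstream peaks 301 to 500 bp from it, and upstream single-gene peaks. The near members peak at 68.0% 180 bp on the 5' side of their summits and again at 67.1% just past them, the far members at 70.1% 20 bp to the 3' side, and upstream peaks at 69.4% 50 bp to the 5' side.

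The composition profile differed between near and far members. Far members had their A and T maximum of 70.1% at +20 bp from the summit, while near members had theirs, 68.0%, at -180 bp, which is on the other side of the TSS. Near members had a second rise of nearly the same height, 67.1% at +30 bp, with a low of 59.2% at -40 bp between them. Over the 21 bases centred on the summit A and T made up 63.9% in near members, against 68.3% in far members and 68.5% in upstream peaks. All 10 of the 8-letter words with the largest excess at members over flanks, a choice made on these values, contained A and T only. The first of them, AAAAATAT, was in 27 members (14.8%) and in 6.38% of flanks. Runs of AAAAAA were in 46.7% of members, 48.4% of upstream peaks and 30.4% of flanks.

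DRE letters were found mainly at near members. TATCGATA, which contains the shorter DRE core CGATA, was within 100 bp of the summit in 9 members (4.95%), in 4.30% of upstream peaks and in 0.580% of member flanks, and in 6.45% of windows on all protein-coding TSSs. Members exceeded their flanks by 4.37 points (1.60 to 8.57), and differed from upstream peaks by 0.641 points with an interval from -2.09 to 4.97. It was in 8 of 70 members within 100 bp (11.4%) and in 1 of 69 at 301 to 500 bp (1.45%), a difference of 9.98 points (1.59 to 19.6). Near members lie around TSSs, where these letters are found in general, and their share exceeded that of all protein-coding TSSs by 4.98 points with an interval from -0.551 to 14.5.

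Most DRE sites found lay near the TSS in members and upstream peaks alike. Sites were sought only within 100 bp of the summit, and 8 of the 9 members with a site lay within 100 bp of the TSS. Closeness to the TSS at members thus follows largely from where the letters were sought. The median position of the sites was -8.5 bp from the TSS at members, where 7 of 9 sites were 5' of the TSS. At upstream peaks it was -48.5 bp, and 41 of 46 sites were 5' of the TSS. A negative value is upstream, and positions are those of the centre of the letters. With the letters near the TSS, the rule that puts member summits downstream of it places most sites 5' of the summit. All 9 were, at -89.5 to -16.5 bp from it, against 15 of 46 sites at upstream peaks, and nothing is read from that contrast. At mTerf5, whose site is printed above, the letters were centred 6.5 bp upstream of the TSS and 60.5 bp from a summit 54 bp inside the gene. At cnc, the single far member, the letters lay inside the gene, 258.5 bp downstream of the TSS and 64.5 bp from the summit. The mTerf5 region reached 54.2 in replicate 2 and 48.2 in replicate 3, and the cnc region 40.1 and 37.99. A letter match says nothing of whether Dref or BEAF-32 was bound.

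Other promoter letters were mostly as frequent as at upstream peaks. Of 19 motifs, 2 had a share at members above that at upstream peaks with an interval clear of 0 and 2 had one below, with no adjustment for the number of motifs. TATAAA was in 30.8% of members and 41.6% of upstream peaks (difference -10.9 points, -17.8 to -3.21), and in 20.6% of flanks. GAGAG, letters bound by GAGA factor, was in 15.4% of members, 21.9% of upstream peaks and 24.99% of protein-coding TSS windows. CGGACG, the pause button of promoters with paused polymerase, was in 7 members (3.85%), against 1.40% of upstream peaks and 5.80% of flanks. CACACACA was in 3.85% of members, against 1.30% of upstream peaks and 4.64% of flanks. The shares of CGGACG and CACACACA at members were thus no higher than in the sequence around them. The A and T content of members and upstream peaks differed as given above, and its part in these shares was not tested.

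Between distances, 5 motifs had a higher share in near than in far members with an interval clear of 0, and all but AGGGCTG had shares in near members whose difference from windows on all protein-coding TSSs had an interval that includes 0. Beside the DRE these were GAGAG (21.4% of near and 8.70% of far members, 24.99% of TSS windows), CAGCTG (15.7% and 4.35%, 13.4% of TSS windows), AGGGCTG, the letters of the insulator protein ZIPIC (7.14% and 0%, 2.49% of TSS windows), and Ohler motif 7, a core promoter element (7 of 70 near and 1 of 69 far members, 6.80% of TSS windows). Near members exceeded TSS windows in AGGGCTG by 4.65 points (0.590 to 13.2), on 5 members. No motif of the 19 had the reverse pattern with an interval clear of 0. At divergent peaks AGGGCTG was in 6.43%, Ohler motif 7 in 16.3%, TATCGATA in 7.62%, CAGCTG in 12.4% and GAGAG in 11.5%. High shares of AGGGCTG and Ohler motif 7 were thus not particular to near members.

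Genes for chromatin and insulator proteins were among the members, as counted over 10 lists beside the 0.997% of all protein-coding genes with a downstream peak and the 6.12% with an upstream one. These lists held upstream peaks too. Of 20 insulator genes, 4 held a downstream peak, against 3 with an upstream one. The 4 are Trl, which encodes GAGA factor, BEAF-32, pita and Dref. Trl had 53.9 in replicate 2 and 49.1 in replicate 3 at 127 bp. BEAF-32 had a member at 2 bp with 35.5 and 45.6, and another at 171 bp with 54.3 in replicate 2 and no match in replicate 3. These 2 BEAF-32 regions overlap, with summits 216 bp apart, so they are not separate stretches of sequence. The zinc finger gene pita had 46.9 and 41.7 at 45 bp, and Dref had a joint signal of 72.2 at 72 bp. Its match in replicate 2, with 59.8, lay 76 bp upstream of the TSS between divergent genes, and that in replicate 3, with 16.3, 107 bp downstream. Both replicate summits of the BEAF-32 member at 2 bp lay upstream of that start, by 19 and 36 bp, and downstream of another start. All 4 genes had their summits in a 5'UTR.

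Among 19 Polycomb genes 2 held members, against 3 with an upstream peak. Besides its strong peak, ph-p had another with its joint summit at 89 bp. The matched values there were 42.0 at 12 bp in replicate 2 and 29.6 at 153 bp in replicate 3, so they compare different places. Su(z)12, a subunit of the histone methyltransferase complex PRC2, had 52.4 in replicate 2 and 45.8 in replicate 3, at 63 bp. Of 27 variegation genes 2 held members and 3 an upstream peak. The members were Trl and dom, a chromatin remodelling ATPase with 38.3 in replicate 2 and 21.0 in replicate 3, and a joint summit at 479 bp. Its summits in replicates 2 and 3, at 514 and 529 bp, both lay past the window, so its membership rests on the joint list. Of 24 trithorax genes 1 held a member and 0 an upstream peak: Utx, a histone demethylase with 32.8 and 25.2 in an intron at 447 bp. Of 22 ecdysone genes 1 held a member, Eip75B, given above, and 2 an upstream peak.

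Of 92 cytoplasmic ribosomal protein genes 1 held a downstream peak, RpL26 (1.09%), against 22 with an upstream peak (23.9%), while 139 and 853 of all protein-coding genes did. RpL26 had 54.9 in replicate 2, at 134 bp, and 26.2 in replicate 3, at 13 bp, and its joint summit lay in an intron 51 bp from 1 start and 178 bp upstream of another start of the same gene. Of 73 mitochondrial ribosomal protein genes 0 held a downstream and 3 an upstream peak, and of 56 signalling genes 0 and 7. The 22 genes of pausing and elongation and the 35 of general transcription factors held 0 downstream peaks, against 1 and 3 with an upstream one. These lists are small, so counts of 0 or 1 are near what 0.997% of their genes would give.

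At the edges of the window the members shade into other classes. Just inside the TSS edge lay BEAF-32 and Pex6 at 2 bp (joint signals 79.8 and 79.0) and CG12299 at 3 bp (86.6). Just outside it lay Naa80 and Lint-1 with the summit on the TSS itself (70.5 and 60.1) and Smn, of snRNP assembly, 2 bp upstream (80.6). At the far edge D2hgdh at 497 bp (60.8), Eip63F-1 at 494 bp (195) and Pi3K92E, a phosphoinositide kinase, at 492 bp (59.4) were inside. Just beyond it, aru at 513 bp (144), cu at 515 bp (66.5) and Fbl6 at 520 bp (182) were outside. Signals on each side of both edges overlapped.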

How the data were processed

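The members and gene lists were chosen with earlier results of these data known. Per the notes deposited with the samples, the authors made lists of regions and background for each replicate and for both together with a control, as input for IDR, a comparison of region ranks between replicates, and then a thresholded joint list. Which aligner, caller and IDR threshold were used is not given in these sources. The signal of a region is the score that the authors' caller assigned, used as deposited only to describe, rank and match regions. The summit was read from the deposited lists as an offset from the start of the region. The 4 lists in assembly dm3, the signal tracks and the control were not analysed here, so read depth is unknown.

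Gene starts were those of Ensembl release 115 for the Release 6 assembly (dm6), 23584 distinct TSSs on 6 arms and transposable elements left out. Every base of the arms was classed by the same rule as the summits to give the available sequence. Replicate lists were cut to as many of their strongest regions as there are IDR peaks, and summits within 150 bp counted as matched. Shares have 95% Wilson intervals, differences of shares Newcombe intervals and medians exact binomial order-statistic intervals, which all cover counting of regions only.

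Letters were looked for on either strand in the 201 bases centred on each summit. They were TATCGATA (the DRE), its core CGATA, which lies within it, GGTCACACT (Ohler motif 1), GAGAG (GAGA factor), the E-boxes CACGTG and also CAGCTG, the TATA box as TATAAA, the initiator as TCAGT, the downstream promoter element as AGACGTG, the pause button as CGGACG, the Zelda site as CAGGTAG, the ZIPIC site as AGGGCTG, the CTCF site as AGGNGGCGC, the homeobox site as TAATTA, the GATA site as GATAAG, runs of AAAAAA and repeats of CACACACA, and Ohler motifs 6 and 7 by name. Flanks were windows centred 1000 bp to either side with no IDR peak.

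The genes named are those of the 15 strongest members matched in both replicates, the 5 weakest members, the 3 nearest to each side of each edge of the window, up to 4 members per gene list, and the 5 with the largest ratio of replicate signals in each direction. Outside this rule, and chosen after their values were seen, are the members with DRE letters and the intronic members whose sequence is printed. So are lncRNA:CR45325, the genes that hold 2 members, Dref and CG44812. The assignment to the TSS, the matching of summits and the letter search were tested on simulated data. Alternatives were stricter peaks, each replicate alone, other TSS sets and windows, and other matching and sequence windows. Python 3.11.15 was used with numpy 2.4.6, pandas 2.3.3, scipy 1.17.1 and matplotlib 3.10.9.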

Additional observations from a re-analysis of the deposited data

How the results depend on the processing

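No paired analysis was possible because the samples form a single group. Shifts of medians and shares were judged against the spread of 2 replicates, a narrow yardstick, the number of members against 1.5 times its value, and the matched and passed shares against their Wilson intervals. By these, 65 recomputed values moved and 19 did not. Leaving out a replicate gave 182 to 187 members, a downstream share of promoter summits of 9.82 to 10.8% (both replicates jointly 9.83%), a median distance of 155.5 to 156 bp (161), a signal ratio to upstream peaks of 0.907 to 0.907 (0.924), 5'UTR shares of 42.2 to 47.8% (46.7), intron shares of 31.3 to 36.4% (32.4), DRE shares of 3.85 to 4.28% (4.95) and A and T of 62.6 to 63.2% (63.6). With the 860 strongest peaks there were 47 members, a share of 8.77%, a distance of 231 bp, a ratio of 0.989, 40.4% in the 5'UTR, 2.13% with the DRE and 97.9% matched in both replicates. With protein-coding TSSs there were 144 members. The share was then 8.14%, the distance 139 bp, the ratio 0.9237, the 5'UTR 59.0%, introns 39.6%, the DRE 5.56% and A and T 63.1%. With 1 TSS per gene there were 279 members, a share of 18.03%, 125 bp, 57.0% in the 5'UTR, 27.2% in introns, A and T of 64.8%, and 17.1% of joint regions passed. Within 300 bp there were 130 members. The share was then 8.55%, the distance 71.5 bp, the ratio 0.959, the 5'UTR 68.5%, introns 18.5% and the DRE 6.92%. Within 1000 bp there were 334 members, a share of 15.2%, 493 bp, a ratio of 0.944, 24.9% in the 5'UTR, 57.2% in introns, 1.80% with the DRE and A and T of 64.8%. Keeping peaks between divergent genes gave 256 members and a share of 13.8%. It also gave 91.5 bp, 60.2% in the 5'UTR, 24.6% in introns, 5.47% with the DRE and A and T of 64.3%. Leaving out members upstream of any other TSS gave 101 members, a share of 5.45%, 373 bp, a ratio of 0.9498, 25.7% in the 5'UTR, 46.5% in introns and 1.98% with the DRE. The signal ratio passed 1 with 1 TSS per gene (1.05) and with divergent peaks kept (1.005), so no order of downstream and upstream signal holds over all settings. Windows of 50 and 150 bp gave the DRE in 1.65% and 7.14%, and A and T of 65.0% and 61.9%. Matching within 50 bp left 54.4% of members in both replicates. The cause of these shifts was not tested beyond what each setting changes by construction, and read depth, which would limit weak regions, is unknown.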
